A study of Mus musculus with 6 samples.

Results

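The small leucine-rich proteoglycans are secreted matrix proteins with a core of leucine-rich repeats, and 9 of their genes were examined here: Dcn, Lum, Bgn, Fmod, Ogn, Omd, Prelp, Aspn and Podn. They were chosen by gene name from the 55298 gene rows of the deposited files, each name matched 1 row, and all 9 were above 0 in every library. The RNA came from fibroblasts of orthotopic lung tumours in wild-type (wt) C57BL/6 mice over 8 weeks old, with tumours pooled before the cells were sorted. Both groups were sorted side by side, per the labels in 3 independent experiments, as large cells without CD45, CD31, EPCAM or mCherry and with PDGFRa and a marker the labels spell PDPL. Cells with surface MHC class II are called apCAFs (antigen-presenting cancer-associated fibroblasts; libraries 1, 2 and 3) and those without it nonapCAFs (libraries 4, 5 and 6). The labels do not say which libraries share an experiment.

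Decorin, lumican, biglycan and fibromodulin bind collagen fibrils and regulate how they assemble, and their loss in mice gives fibrils of irregular width. Decorin and biglycan carry chondroitin or dermatan sulfate chains, whereas lumican and fibromodulin carry keratan sulfate. Free decorin and biglycan also bind TGF-beta and act on cell-surface receptors, biglycan among them on Toll-like receptors. In the lung these genes are expressed mainly by fibroblasts.

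Values are the authors' normalized counts, rounded by them to whole numbers, and read depth is unknown. Their sums per library were 77960347 to 93330791, which are not depths. Fibroblast genes were abundant in all 6 libraries (10 markers summed to 3035572 to 4339637 in apCAFs and 1438222 to 1687937 in nonapCAFs, with 4 called higher), while 8 leukocyte markers summed to 2132 to 3337 in apCAFs and 1638 to 1802 in nonapCAFs, and 8 endothelial markers to 592 to 881 and 348 to 490. apCAFs 1 and 2 were close to each other (SD of the log2 difference 0.24 over 17829 genes averaging at least 100), as were nonapCAFs 4 and 5 (0.25), and apCAFs 3 and nonapCAFs 6 stood apart from both (0.69 and 0.47). The 3 class II chain genes that check the gate were all called higher and summed to 46815 to 90882 in apCAFs and 793 to 1070 in nonapCAFs. Markers of other cells differed as well: 9 mesothelial markers summed to 40331 to 51979 in apCAFs and 5277 to 6001 in nonapCAFs, and 7 of the 9 were called higher. Alveolar type II markers, 12 in all, summed to between 9080 and 106127 in apCAFs and 9060 to 10314 in nonapCAFs. Sftpc stood at 48853, 40491 and 226 in apCAFs 1, 2 and 3 and at 124 to 185 in nonapCAFs. Abca3, Etv5 and Lamp3 led the sums of nonapCAFs (means 3726, 3966 and 1772) and of apCAFs 3 (4425, 3387 and 800). Of the other marker lists, 4 of 11 pericyte and smooth muscle genes, 1 of 8 epithelial and 1 of 8 endothelial genes were called higher, 1 of 10 cartilage and bone genes lower (Comp), and 0 of 8 leukocyte and 0 of 12 type II genes in either direction, although at an unadjusted p under 0.05 3 leukocyte genes were higher and 1 lower, and 1 type II gene higher. Pericyte and smooth muscle markers summed to 39451 to 41504 in apCAFs and 10221 to 14312 in nonapCAFs, epithelial markers to 8328 to 16430 and 7487 to 10551, and cartilage and bone markers to 9544 to 15740 and 12119 to 18026. By mean, Krt8 and Krt18 led the epithelial sums in both groups (3693 and 4040 in apCAFs, 3376 and 5431 in nonapCAFs). Of the 8 epithelial markers, 5 lay higher in apCAFs without overlap (17.1% of all genes) and 0 lower (15.4%). Cldn3, Krt7, Muc1, Epcam and Cdh1 were higher at an unadjusted p under 0.05. The part of these cells in the values below was not tested. Without apCAFs 1 and 2, the libraries rich in Sftpc, limma called Bgn, Prelp and Podn higher (as 7.98% of 35038 genes) and Aspn lower (as 5.07%), with the lone apCAFs library assumed to vary like the others. With 1 apCAFs library left, that fit has no spread within the apCAFs group. Its calls therefore do not test the part of type II cells in the values of these members. That library, apCAFs 3, had the highest mesothelial sum, with Wt1 at 14937 against 5484 and 5441 in apCAFs 1 and 2. Lrrn4, Gpm6a, Bnc1, Krt19 and Calb2 were also highest there among apCAFs libraries. Msln (8928 against 11837 and 10700) and Upk3b (4316 against 5204 and 4523) were lowest there, and Upk1b lay between. The p-values below measure the spread between these 6 libraries. In sorted bulk RNA, more cells of a kind and more RNA per cell cannot be told apart.

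The stretches of 250 bases before the transcription start are shown for Bgn, Prelp and Podn, the 3 members called higher in apCAFs, and for Aspn, which lay lower in every apCAFs library. They come from a table of RefSeq promoters (GRCm38.p6), in which 7 of the 9 members were matched, all but Dcn and Lum. Lum, which also lay lower in every apCAFs library, is therefore not shown. Each is written 5′ to 3′ in the direction of the gene, with matches to any of 5 searched motifs in capitals.
Bgn, chrX:73483351-73483600, plus strand: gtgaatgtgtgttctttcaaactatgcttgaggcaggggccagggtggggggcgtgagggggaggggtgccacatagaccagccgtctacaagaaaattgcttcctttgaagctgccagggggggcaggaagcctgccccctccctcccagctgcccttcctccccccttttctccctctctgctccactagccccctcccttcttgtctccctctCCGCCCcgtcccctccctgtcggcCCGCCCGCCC
Prelp, chr1:133921402-133921651, minus strand: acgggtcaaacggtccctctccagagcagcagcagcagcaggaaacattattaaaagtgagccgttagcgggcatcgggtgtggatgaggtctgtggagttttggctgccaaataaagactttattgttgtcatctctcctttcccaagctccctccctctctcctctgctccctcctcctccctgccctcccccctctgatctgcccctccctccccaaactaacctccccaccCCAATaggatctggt
Podn, chr4:108031955-108032204, minus strand: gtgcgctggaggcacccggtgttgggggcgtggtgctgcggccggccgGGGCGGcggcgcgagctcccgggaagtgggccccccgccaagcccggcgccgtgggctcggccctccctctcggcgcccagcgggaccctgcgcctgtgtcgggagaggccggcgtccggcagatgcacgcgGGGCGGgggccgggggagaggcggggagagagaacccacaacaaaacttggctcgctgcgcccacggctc
Aspn, chr13:49544193-49544442, plus strand: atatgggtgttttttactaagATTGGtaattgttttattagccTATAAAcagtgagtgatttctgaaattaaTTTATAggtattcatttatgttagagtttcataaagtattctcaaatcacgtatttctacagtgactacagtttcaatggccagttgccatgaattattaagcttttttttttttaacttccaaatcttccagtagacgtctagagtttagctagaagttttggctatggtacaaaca

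The motifs were searched on both strands, and overlapping matches were counted. They were the TATA box (letters TATAAA, in 12.4% of all 32851 RefSeq windows of this length), the GC box (letters GGGCGG, 32.7%), the CCAAT box (33.8%), the AP-1 site (TGA and TCA with any 1 base between, 6.75%) and the interferon response element (GAAA repeated after any 2 bases, 2.98%). The Bgn window held 3 GC boxes, of which a pair overlaps at its 3′ end, all as CCGCCC on the strand shown, and this Podn window held 2. A second Podn window, chr4:108030987-108031236, held no match. Both Podn windows lie inside the gene span given for Podn below (108014791 to 108096445, minus strand), not at its upstream end. The Prelp window held 1 CCAAT box. The Aspn window held 2 TATA boxes and 1 CCAAT box. G and C made up 64.4% of the Bgn window, 55.6% of the Prelp window, 78% of this Podn window and 30% of the Aspn window, against a median of 52.4% over all windows. No AP-1 or interferon response match was found in any of the 7 members' windows. These matches describe the letters only.

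Members of the family did not share one direction. Bgn, Prelp and Podn rose in apCAFs by 2.79-fold, 2.72-fold and 3.36-fold, and no member was called lower. Dcn and Fmod lay higher in all 3 apCAFs libraries, and Lum and Aspn lower in all 3, without passing the test. Ogn and Omd overlapped between the groups. The test was limma on log2(value + 1) over 36443 genes with Benjamini-Hochberg adjustment, called at 0.05. It called 3 of 9 members higher, against 3.91% of all genes (5.87% of genes averaging at least 100), and 0 of 9 lower, against 0.486% (0.0673% of genes averaging at least 100). At an unadjusted p under 0.05, 5 members lay higher (13.1% of all genes) and 1 lower (6.19%). Groups without overlap were found for 5 members on the higher side (17.1% of all genes, and 25.5% of those averaging at least 100) and for 2 on the lower side (15.4% and 25.9%). The median log2 fold change was 1.26 over the members and -0.04 over all genes tested.

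**Figure D1:**
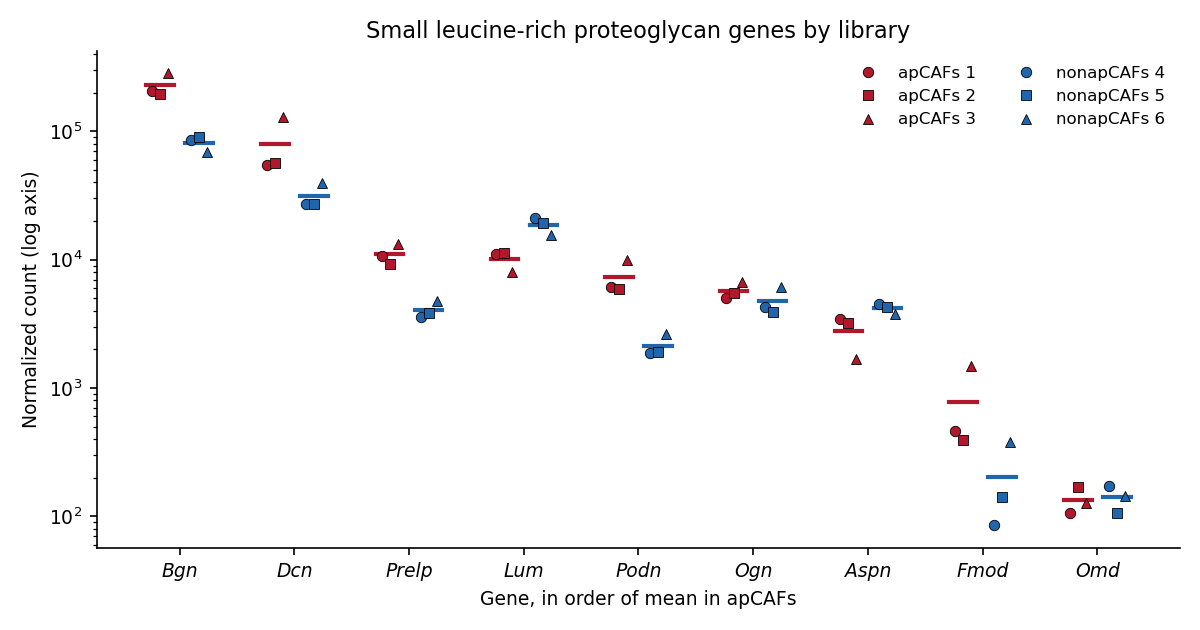
Normalized counts (log axis) of the 9 genes in the 6 libraries; points are libraries and lines are group means (n = 3). The apCAFs points of Bgn, Dcn, Prelp, Podn and Fmod lie above all nonapCAFs points of the same gene, those of Lum and Aspn lie below, and those of Ogn and Omd overlap.

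Bgn encodes biglycan, which carries chondroitin or dermatan sulfate chains and binds collagen and TGF-beta. Its gene (ENSMUSG00000031375) lies on chromosome X, 73483602 to 73495933, in the mm10 coordinates of the files. It read 207215, 196605 and 283634 in apCAFs 1, 2 and 3 and 85164, 90392 and 69460 in nonapCAFs 4, 5 and 6. The lowest apCAFs library thus lay above the highest nonapCAFs library. The means were 229151 ± 47481 and 81672 ± 10894 (SD, n = 3), a log2 fold change of 1.48 (SE 0.21, limma adjusted p = 0.0283). Bgn alone made up 0.251% ± 0.0462 of the library total in apCAFs and 0.0994% ± 0.00958 in nonapCAFs (SD, n = 3), a measure that does not depend on scaling between libraries. All 9 members together made up 0.380% ± 0.0928 and 0.180% ± 0.00322.

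Dcn encodes decorin, the close relative of biglycan that carries a single glycosaminoglycan chain and limits the width of collagen fibrils. It lies on chromosome 10, 97479609 to 97518143 (ENSMUSG00000019929). Its values were 54254, 56745 and 129892 in apCAFs 1, 2 and 3 and 27389, 26981 and 39292 in nonapCAFs 4, 5 and 6. All apCAFs libraries were above all nonapCAFs libraries, but apCAFs 3 lay 2.34-fold above the other 2 libraries of its group. The log2 fold change of 1.26 (SE 0.40) did not pass (limma adjusted p = 0.183). Without apCAFs 3 it was 0.85 (limma adjusted p = 0.138). Dcn is listed in the authors' deposited table as 2.57-fold higher (DESeq2 adjusted p = 0.000882).

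Aspn encodes asporin, a member with a stretch of aspartate residues that binds collagen and TGF-beta. It lies on chromosome 13, 49544443 to 49567565 (ENSMUSG00000021388). It read 3439, 3222 and 1675 in apCAFs 1, 2 and 3 and 4532, 4301 and 3741 in nonapCAFs 4, 5 and 6, so every apCAFs library was below every nonapCAFs library. The log2 difference was -0.66 (SE 0.32, limma adjusted p = 0.315). apCAFs 3 was farther from apCAFs 1 and 2 (log2 -0.99) than the groups were from each other, and without it the difference was -0.33 (limma adjusted p = 0.289).

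Lum encodes lumican, a keratan sulfate proteoglycan best known for keeping the cornea clear. It lies on chromosome 10, 97565128 to 97572703 (ENSMUSG00000036446). The values were 11026, 11304 and 8086 in apCAFs 1, 2 and 3 and 21256, 19490 and 15611 in nonapCAFs 4, 5 and 6. The highest apCAFs library was below the lowest nonapCAFs library. Means were 10139 ± 1783 and 18786 ± 2888 (SD, n = 3), a log2 difference of -0.89 (SE 0.21), which did not pass over all genes (limma adjusted p = 0.0952). It passed with a pseudocount of 10 (limma adjusted p = 0.0484), with genes limited to those averaging at least 100 (limma adjusted p = 0.0272) and with a variance trend (limma adjusted p = 0.0142). Lum is listed in the authors' deposited table as 1.85 times lower in apCAFs (DESeq2 adjusted p = 3.66e-05).

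Prelp encodes a member with a basic amino-terminal region that binds heparan sulfate and is thought to link basement membranes to collagen. It lies on chromosome 1, 133910304 to 133921414 (ENSMUSG00000041577). Its values were 10586, 9305 and 13190 in apCAFs 1, 2 and 3 and 3585, 3819 and 4736 in nonapCAFs 4, 5 and 6, with no overlap. The means were 11027 ± 1980 and 4047 ± 608 (SD, n = 3), a log2 fold change of 1.44 (SE 0.20, limma adjusted p = 0.0276). An antisense noncoding RNA gene, Gm15851, shares 350 of its 662 exon bases with Prelp and stood at 16.0% to 18.0% of the Prelp value in all 6 libraries. The strand setting of the counting is not given in the sources used here. Reads from the 350 shared bases therefore cannot be assigned to one gene or the other. Prelp has 3615 exon bases in all.

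Podn encodes podocan, a member found in kidney podocytes and in vessel walls. Its gene spans chromosome 4, 108014791 to 108096445 (ENSMUSG00000028600). It read 6086, 5910 and 9884 in apCAFs 1, 2 and 3 and 1860, 1919 and 2619 in nonapCAFs 4, 5 and 6. The lowest apCAFs value was thus over 2-fold above the highest nonapCAFs value. The means were 7293 ± 2245 and 2133 ± 422 (SD, n = 3), a log2 fold change of 1.75 (SE 0.28, limma adjusted p = 0.0357), but with values divided by library totals it was 1.60 (limma adjusted p = 0.051). Its gene model overlaps that of Scp2 on the same strand, with 0 shared exon bases in GENCODE M21.

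Fmod encodes fibromodulin, which competes with lumican for sites on collagen. It lies on chromosome 1, 134037254 to 134048277 (ENSMUSG00000041559). Its values of 464, 392 and 1478 in apCAFs 1, 2 and 3 lay above the 85, 141 and 378 of nonapCAFs 4, 5 and 6, but the highest nonapCAFs library almost reached the lowest apCAFs library. The estimate was the largest of the 9 and the least precise, a log2 fold change of 1.96 with a 95% interval from 0.03 to 3.88 (limma adjusted p = 0.253). The authors' deposited table lists it 3.85-fold higher (DESeq2 adjusted p = 0.0138).

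Ogn encodes osteoglycin, also called mimecan, and Omd osteomodulin, a keratan sulfate proteoglycan of bone matrix. Ogn lies on chromosome 13, 49608046 to 49624501 (ENSMUSG00000021390). It read 5013, 5480 and 6726 in apCAFs 1, 2 and 3 and 4289, 3916 and 6122 in nonapCAFs 4, 5 and 6, so nonapCAFs 6 exceeded 2 apCAFs libraries. The log2 difference was 0.28, with a 95% interval from -0.31 to 0.87 (limma adjusted p = 0.518). Omd, on chromosome 13 at 49582462 to 49592822 (ENSMUSG00000048368), had low values, at 105, 169 and 126 in apCAFs 1, 2 and 3 against 173, 106 and 144 in nonapCAFs 4, 5 and 6. Its log2 difference was -0.08, with a 95% interval from -0.77 to 0.61 (limma adjusted p = 0.874), or 0.586-fold to 1.53-fold. Aspn, Omd and Ogn lie inside the gene model of Cenpp on the opposite strand. Cenpp shares 7 exon bases with Aspn and 0 with the other two, and its values (376 to 726) exceeded those of Omd in every library.

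**Figure D2:**
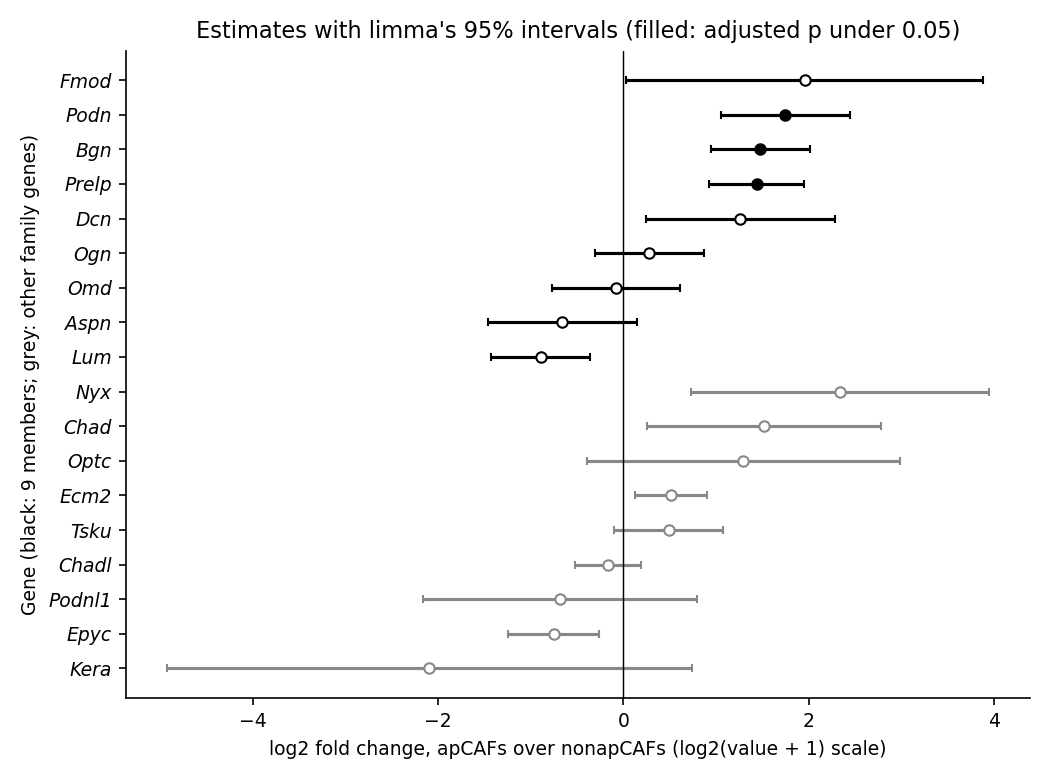
Log2 fold change of the 9 members (black) and of 9 other family genes (grey), with limma's 95% interval; filled points have an adjusted p under 0.05. Filled points are Podn, Bgn and Prelp, at 1.75, 1.48 and 1.44, and the intervals of Lum and Epyc lie wholly below 0.

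The calls depended on the test and on which libraries were kept. The authors' deposited table has 5 members higher (Bgn, Prelp, Podn, Dcn and Fmod, against 20.6% of its 19255 genes with an adjusted p) and 1 lower (Lum, against 9.77%). With limma, leaving out 1 library other than apCAFs 3 called 0 of 9 members, and 310 to 810 of 35644 to 35924 genes. By unadjusted p under 0.05, 3 to 5 members were higher and 1 lower. In the same fits 3796 to 4541 of all genes were higher and 1352 to 2208 lower. Leaving out apCAFs 3 called 3 members higher, and 1601 of 35948 genes higher. Over these 6 repeats Bgn ranged from 1.31 to 1.58 in log2 fold change, Prelp from 1.30 to 1.56 and Podn from 1.51 to 1.91, while their adjusted p reached 0.101, 0.106 and 0.127. An experiment term under each of the 6 possible pairings left 0 members called in limma, and 0 of all 36443 genes. By unadjusted p under 0.05, 3 to 5 members were higher and 1 lower under these pairings. Of all genes, 3949 to 4786 were higher and 1319 to 1894 lower.

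Libraries 3 and 6 lay on the same side of the rest of their groups for 7 of 9 members, and for 65.1% of the 17829 genes averaging at least 100. For Bgn, Prelp, Lum and Omd both differences were smaller in size than the SD over those genes (0.69 and 0.47). Fmod was 3.46-fold higher in apCAFs 3 than in apCAFs 1 and 2 and 3.43-fold higher in nonapCAFs 6 than in nonapCAFs 4 and 5. Dcn was 2.34-fold and 1.45-fold higher, Podn 1.65-fold and 1.39-fold, Ogn 1.28-fold and 1.49-fold, and Prelp 1.33-fold and 1.28-fold. Lum and Aspn lay lower in both libraries (log2 -0.47 and -0.38 for Lum, -0.99 and -0.24 for Aspn). Bgn was the abundant exception, higher in apCAFs 3 (log2 0.49) and lower in nonapCAFs 6 (-0.34). These are differences between single libraries and the mean of 2, with no test. The group difference itself was of like size in both subsets for Prelp, at 2.68-fold for apCAFs 1 and 2 over nonapCAFs 4 and 5 and 2.78-fold for apCAFs 3 over nonapCAFs 6, and for Fmod, at 3.87-fold and 3.90-fold. For Lum it was log2 -0.87 and -0.95. Dcn differed more between libraries 3 and 6 (3.31-fold) than between the other 4 (2.04-fold), as did Bgn (4.08-fold and 2.30-fold) and Aspn (log2 -1.16 and -0.41). A term shared by libraries 3 and 6, which was added once the data had been seen, left 5 members called higher in limma (Bgn, Prelp, Podn, Dcn and Fmod), against 6.24% of all genes, and Lum lower (limma adjusted p = 0.0235), against 0.59%. That fit called 2490 genes in all, beside 1602 without the term.

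**Figure D3:**
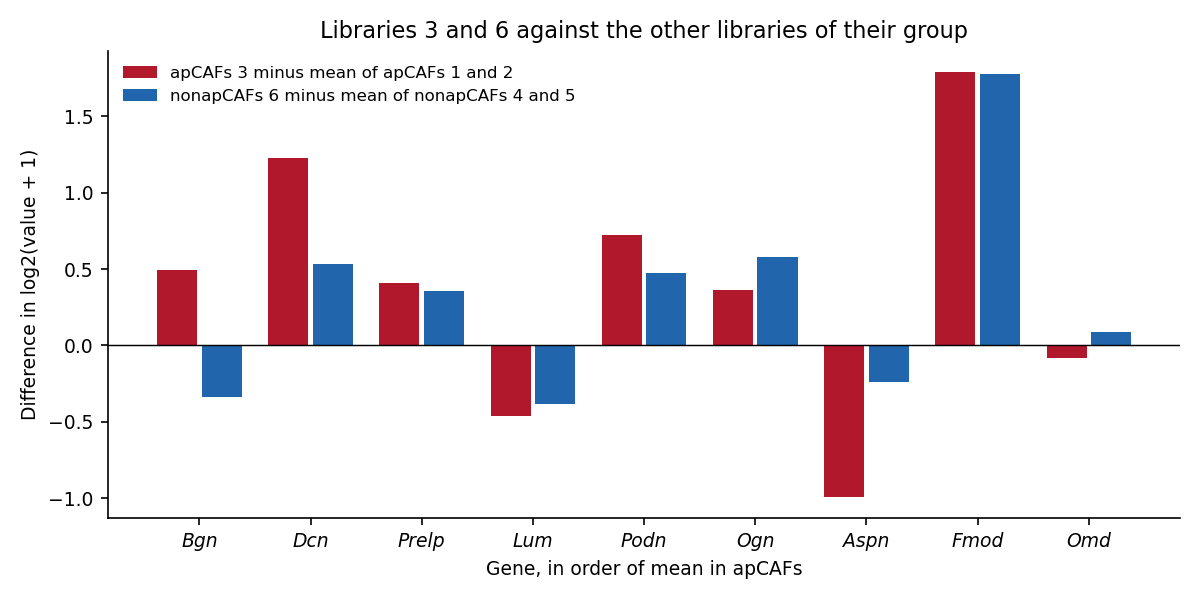
Difference in log2(value + 1) of apCAFs 3 from the mean of apCAFs 1 and 2 (red) and of nonapCAFs 6 from the mean of nonapCAFs 4 and 5 (blue). Fmod has the highest bar in both groups (1.79 and 1.78), and only Bgn and Omd have bars on opposite sides of 0.

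Per kilobase of exon, Bgn was the most abundant member in both groups, at 37572 ± 7785 normalized counts per kb in apCAFs and 13391 ± 1786 in nonapCAFs (SD, n = 3). In apCAFs it was followed by Dcn (13754 ± 7360), Lum (4142 ± 728), Prelp (3050 ± 548), Ogn (2237 ± 345), Podn (1708 ± 526), Aspn (1180 ± 409), Fmod (235.3 ± 184) and Omd (59.3 ± 14.5). The library ranges of neighbours from Lum to Aspn overlapped in apCAFs, so their order was within the spread. In nonapCAFs the order was Bgn, Lum (7674 ± 1180), Dcn (5348 ± 1198), Ogn (1861 ± 460), Aspn (1781 ± 173), Prelp (1119 ± 168), Podn (499.5 ± 98.9), Omd (62.7 ± 14.9) and Fmod (60.9 ± 47.0). There the ranges of Lum and Dcn, of Ogn and Aspn, and of Omd and Fmod overlapped. These levels divide by the summed length of all annotated exons, which is 5838 bases for Dcn against 1758 in its principal transcript. With principal transcripts, an alternative added after seeing the data, Dcn had 17759 ± 3978 per kb in nonapCAFs and lay above Lum in every library.

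The make-up of the family within a library was compared because it does not depend on scaling between libraries. Lum made up 24.1% ± 2.98 of the summed level per kb in nonapCAFs and 6.88% ± 2.47 in apCAFs (SD, n = 3). Bgn made up 42.0% ± 4.36 and 59.1% ± 2.10, in the same order. Aspn went from a share of 5.59% ± 0.369 in nonapCAFs to 2.005% ± 0.985 in apCAFs and Ogn from 5.89% ± 1.67 to 3.55% ± 0.370. Prelp and Podn had larger shares in apCAFs, by 1.28 and 1.07 percentage points. For 7 of 9 members the groups' shares did not overlap. For each of these the exact two-sided permutation test gave p = 0.10, the smallest that 3 against 3 allows (Benjamini-Hochberg adjusted p = 0.129 over 9 members). The shares of a library add up to a fixed whole, so a larger share of Bgn leaves less for the others. They are therefore not 7 separate differences. Ogn and Omd are among the 7 although their levels overlapped between the groups. The share of Dcn, 20.6% ± 5.74 in apCAFs and 16.9% ± 4.42 in nonapCAFs, overlapped between the groups. With principal transcript lengths the difference for Lum was -8.92 instead of -17.2 percentage points, and that for Bgn 10.5 instead of 17.05. The differences for Aspn, Ogn and Podn became -1.91, -1.39 and 0.45. Prelp, at 0.30 percentage points, then overlapped between the groups (exact permutation p = 0.30), as it did with no division by length (0.46, exact permutation p = 0.30), so that 6 of 9 members did not overlap.

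**Figure D4:**
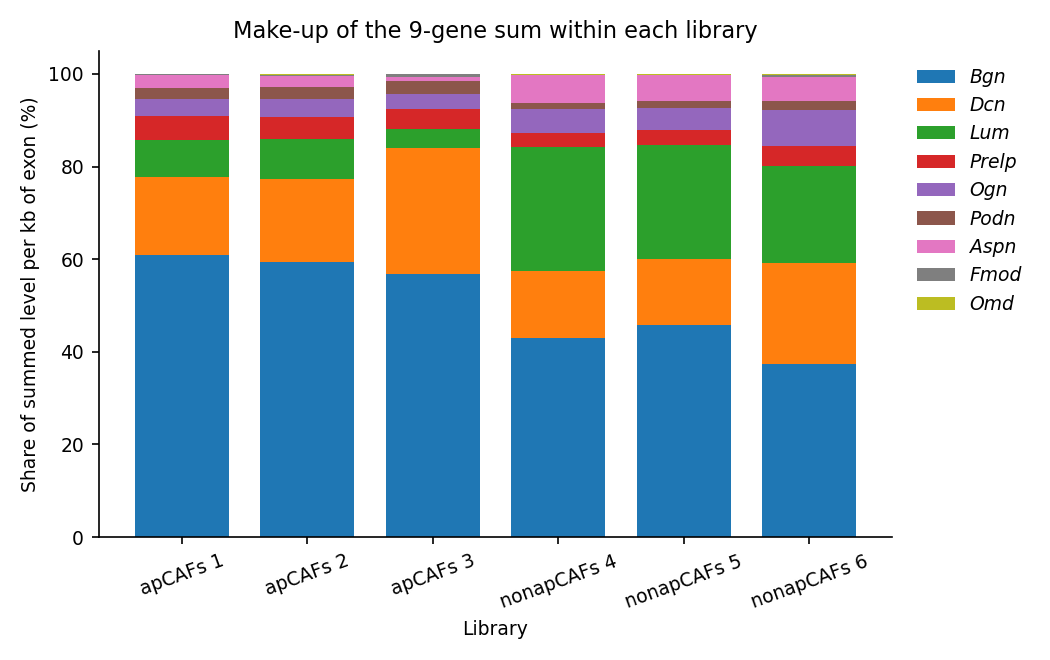
Share (%) of each gene in the summed level per kb of exon of the 9 genes, 1 bar per library. The Lum segment fills 20.9% to 26.7% of the nonapCAFs bars and 4.04% to 8.52% of the apCAFs bars, and Bgn is the largest segment in all 6.

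Ratios within a library set members against each other and against 1 collagen gene, Col1a1. Normalized counts of Dcn were 4.92, 5.02 and 16.1 times those of Lum in apCAFs 1, 2 and 3 and 1.29, 1.38 and 2.52 times in nonapCAFs 4, 5 and 6. The ratio was 4.45-fold higher in apCAFs, in 3 of 3 libraries above all nonapCAFs libraries (exact permutation p = 0.10; Benjamini-Hochberg adjusted p = 0.267 over 8 ratios). Bgn to Lum stood at 17.4 to 35.1 in apCAFs and 4.01 to 4.64 in nonapCAFs. Against Col1a1, a fibrillar collagen chain, Bgn stood at 0.208 to 0.236 in apCAFs and 0.223 to 0.268 in nonapCAFs. These ranges overlap (exact permutation p = 0.30). Col3a1, another fibrillar chain, had higher means than Col1a1 (1457257 against 1035646 in apCAFs, 745895 against 328792 in nonapCAFs). Its log2 fold change was smaller, at 0.96 against 1.62 for Col1a1. Ratios to Col3a1 were not computed. Lum stood at 0.00592 to 0.0131 times Col1a1 in apCAFs and 0.0501 to 0.0668 times in nonapCAFs (exact permutation p = 0.10). The other ratios overlapped between the groups. They were Bgn to Dcn, Prelp to Fmod, Ogn to Aspn and Dcn to Col1a1 (exact permutation p = 0.50, 0.50, 0.20 and 0.30).

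Most members sit in 3 gene clusters of the family, and neighbours did not share a direction in all of them. On chromosome 10, Dcn lies 47.0 kb from Lum, on the same strand, and its log2 fold change of 1.26 faced -0.89 for Lum. Beyond Lum, Kera, which encodes keratocan, read 28, 74 and 3 in apCAFs 1, 2 and 3 and 113, 105 and 55 in nonapCAFs 4, 5 and 6 (log2 -2.09, limma adjusted p = 0.353). Epyc, which encodes epiphycan, read 45, 48 and 45 against 89, 88 and 61 in the same order (log2 -0.75, limma adjusted p = 0.117). On chromosome 13, Ecm2, Aspn, Omd and Ogn lie in this order, and their log2 differences were 0.52, -0.66, -0.08 and 0.28. On chromosome 1, Prelp and Fmod both lay higher in apCAFs, and Optc, 2.31 kb from Prelp, was faint at 1 to 19. Within that chromosome 1 span, Gm15851 was the only gene outside the family averaging at least 100.

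**Figure D5:**
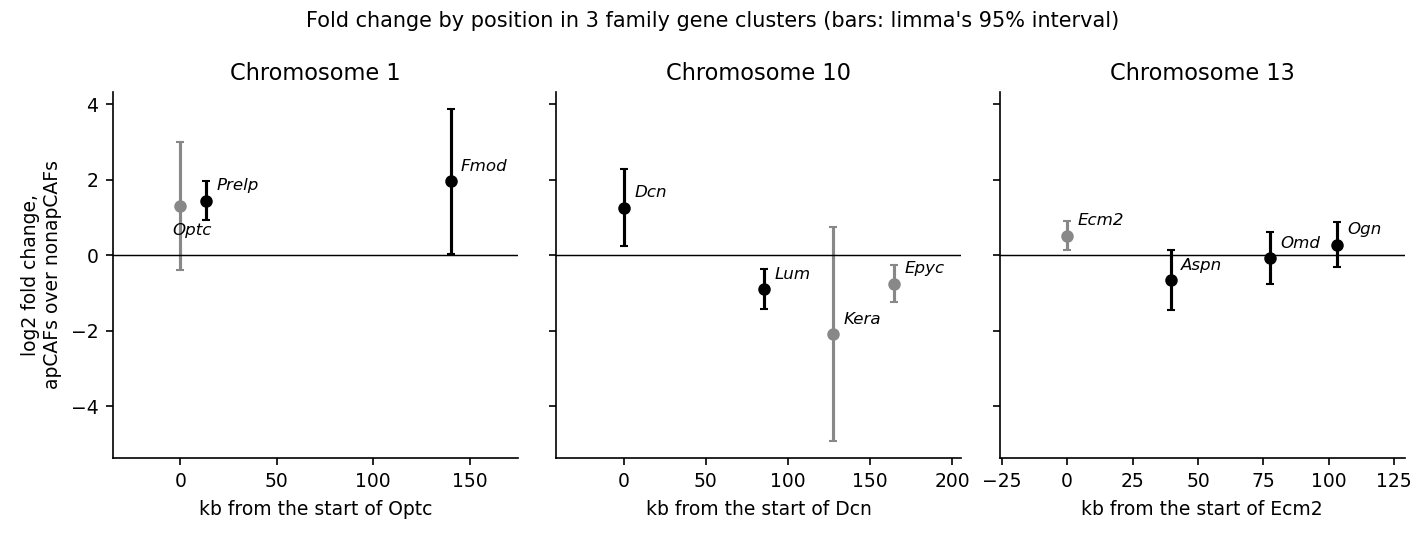
Log2 fold change (y axis, with limma's 95% interval) of family genes by distance in kb from the start of the first gene of 3 clusters (black: members; grey: other family genes). Dcn lies above 0 and Lum below it, while both members on chromosome 1 lie above 0.

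Of the other family genes on the list, 0 of 9 were called in limma. Their median log2 fold change was 0.49, against 1.26 for the members and -0.04 for all genes tested. The groups did not overlap for 5 of 9, with 4 higher (17.1% of all genes) and 1 lower (15.4%). At an unadjusted p under 0.05, 3 lay higher (Chad, Ecm2 and Nyx, against 13.1% of all genes) and 1 lower (Epyc, against 6.19%). Nyx was faint, at 2 to 31. The authors' deposited table has Ecm2 and Chad higher (DESeq2 adjusted p = 0.0124 and 0.0212) and none of these genes lower. By level the list was led by Tsku, the BMP antagonist tsukushi, and Podnl1, a relative of podocan. Tsku read 3966, 3785 and 6009 in apCAFs 1, 2 and 3 and 3331, 3479 and 2815 in nonapCAFs 4, 5 and 6 (limma adjusted p = 0.310). Podnl1 read 2680, 2707 and 713 against 3268, 3033 and 2174 (log2 -0.69, limma adjusted p = 0.518).

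Proteoglycan core proteins outside the family differed in part. Of 23 genes, limma called 6 higher and 0 lower, against 3.91% and 0.486% of all genes (median log2 fold change 0.95). Without overlap between the groups, 10 lay higher and 0 lower, against 17.1% and 15.4% of all genes. Gpc3, a glypican on the cell surface, stood at 12738, 13031 and 10740 in apCAFs 1, 2 and 3 and at 1710, 1729 and 1688 in nonapCAFs 4, 5 and 6 (7.09-fold, limma adjusted p = 0.00643). Sdc3, a syndecan, was 4.66-fold higher and Gpc4 4.54-fold. Spock3, the other gene of the 4 with the smallest p, had 8 to 29 in apCAFs and 0 in every nonapCAFs library. Of the large matrix proteoglycans, chosen after their values were seen, Vcan, which encodes versican, had 32656 ± 980 and 32625 ± 4163 in apCAFs and nonapCAFs, and Hspg2, which encodes perlecan, had 93729 ± 6228 and 97005 ± 14298 (SD, n = 3).

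The genes of sugar chain synthesis were taken next. Over all genes, limma called 3.91% higher and 0.486% lower, and 17.1% lay higher and 15.4% lower without overlap. For the linker on which chains start, 0 of 7 genes passed in limma (median -0.11), and 1 did at an unadjusted p under 0.05. The most abundant were Fam20b, with 7895 ± 2098 in apCAFs and 9572 ± 1876 in nonapCAFs, and B3gat3, with 3040 ± 123 and 3397 ± 26.7 (SD, n = 3). Of 16 chondroitin and dermatan sulfate genes limma called 1 higher (median 0.43), the polymerase gene Chsy3. It stood at 439, 521 and 833 against 182, 170 and 158 (3.38-fold, limma adjusted p = 0.0344). Without overlap, 7 of the 16 lay higher and 1 lower. The polymerising factor gene Chpf had 17804 ± 1435 and 17084 ± 943, and Chst11, a sulfotransferase gene, 15910 ± 3092 and 8451 ± 831 (SD, n = 3). Of 9 genes for keratan sulfate and tyrosine sulfation limma called 2 higher (median 0.38), B3gnt7 and B4galt4, which extend the keratan sulfate chain. B3gnt7 was 17.3-fold higher (154 to 196 in apCAFs and 7 to 12 in nonapCAFs) and B4galt4 10.7-fold. Without overlap, 6 of the 9 lay higher and 1 lower.

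Partners of the core proteins differed as follows, with limma calling 3.91% of all genes higher and 0.486% lower. Without overlap, 17.1% of all genes lay higher and 15.4% lower. Of 11 collagen genes whose products members bind, limma called 4 higher and 0 lower (median 0.75). They were Col5a2 (3.77-fold), Col1a2 (3.51-fold), Col1a1 (3.08-fold) and Col12a1 (3.23-fold). Without overlap, 9 of the 11 lay higher and 0 lower. Of 11 growth factor genes 3 were called higher (median 1.35), and 7 lay higher and 1 lower without overlap. The 3 were Bmp6 (3.19-fold), Bmp2 (3.31-fold) and Tgfb2 (limma adjusted p = 0.0403). Tgfb2 read 1819, 1877 and 4170 in apCAFs 1, 2 and 3 and 483, 512 and 592 in nonapCAFs 4, 5 and 6. Tgfb1, named after its values were seen, had means of 6080 and 6245. Of 14 receptor genes 7 lay higher and 1 lower without overlap, and 3 were called higher (median 0.60). They were Tlr2 (4.24-fold) and its co-receptor gene Cd14 (4.24-fold), through which biglycan is known to signal, and Kdr (38.5-fold), the VEGF receptor gene. Tlr4, also named after its values were seen, had means of 1564 and 1749 (limma adjusted p = 0.520). Of 12 genes for processing proteases 6 lay higher and 1 lower without overlap, and 1 was called higher (median 0.12). It was Tll1, a relative of the protease that trims biglycan (11.6-fold, limma adjusted p = 0.0119). Bmp1, that protease, had 68129 ± 17261 and 53880 ± 1250 (SD, n = 3). The other most abundant gene of that list, Mmp14, had 72134 ± 14895 and 51559 ± 2176 (SD, n = 3). These lists were chosen with earlier results of the data known, and their counts describe the lists only.

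The profile most like that of Bgn, the most abundant member, was sought among genes averaging at least 100, over the 6 libraries. By root mean square difference between centred log2 profiles, the 5 closest were Ets2 (0.056), C1rl (0.057), Pde4b (0.062), Tap1 (0.065) and Tnfrsf26 (0.065). Their levels and fold changes are not tested, since the profile chose them.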

How the data were processed

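RNA was measured in 3 apCAFs and 3 nonapCAFs libraries, grouped by their titles. The deposited values per library are counts that the authors normalized and rounded to whole numbers, here treated as a score per gene and not as raw counts, so limma replaced count tests. The authors' deposited table also gives a p-value, a fold ratio and a log2 fold change per gene from DESeq2. For the authors' own steps, Trim Galore, Bowtie2, DESeq2 and mm10 are listed, per the submitters' processing notes, with no versions or roles. Which counter, annotation and strand option were used is not given in the sources used here. Read depth is unknown, so no counting intervals are given. No file held values of samples not mapped to a group.

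Genes above 0 in at least 1 library were tested with limma 3.58.1 in R 4.3.3 on log2(value + 1) (36443 of 55298 genes, 18855 being at 0 everywhere), group as the only term, Benjamini-Hochberg adjustment, threshold 0.05. The limma fold changes and the differences between single libraries are on this log2(value + 1) scale, which shrinks the difference between low values. Group estimates of low genes can still exceed the authors', as for Kera (log2 -2.09 in limma, -1.39 in their deposited table). Ratios between genes use the values as deposited, and the authors' folds are their own. Single values were compared by exact two-sided permutation tests over libraries. The script was tested on simulated data. Exon lengths are from GENCODE M21, in which 55117 gene IDs were found. Promoters are from RefSeq (GRCm38.p6).

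The members and lists were chosen with earlier results of these data known. Of each list, called genes were named, up to 4 by smallest p, or the 2 most abundant where fewer than 2 were called. Alternatives covered pseudocount, filter, scaling, variance trend, experiment terms, gene length and left-out libraries.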

Additional observations from a re-analysis of the deposited data

How the results depend on the processing

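limma called 1602 genes, 1425 higher and 177 lower. The count was 2527 with a pseudocount of 10, 2748 among genes averaging at least 100, 436 with no filter, 3453 with a variance trend and 4575 without apCAFs 1 and 2, and from 310 to 1791 when 1 library was left out. With close pairs averaged it was 0 (by unadjusted p under 0.05, 3424 higher and 1282 lower), and with each of 6 experiment pairings 0 (3949 to 4786 higher and 1319 to 1894 lower). The number of members called, 3, was 0 with no filter (4 higher and 1 lower unadjusted), 0 with close pairs averaged (3 higher and 0 lower unadjusted), 0 under each pairing (3 to 5 higher and 1 lower unadjusted), and 0 to 3 when 1 library was left out, 3 only without apCAFs 3. A term for apCAFs 3 and nonapCAFs 6, added after the data were seen, gave 2490 genes and 6 members. Division by library totals, quantile normalization and upper-quartile centring shifted the median of all genes to -0.18, -0.19 and -0.14 on the log2 scale, and the members kept their directions. Omd, -0.08 in log2, ranged from -0.27 to 0.0813 when 1 library was left out, turning to 0.0776 without apCAFs 1 and to 0.0813 without nonapCAFs 4; the other 8 members kept their sign in every alternative run. Share differences kept their sign, from -18.8 to -15.8 percentage points for Lum and 14.7 to 18.9 for Bgn when 1 library was left out. The labels do not give the pairing of libraries, so the experiment term was run under every possible one. Prelp's share difference of 1.28 points was 0.30 with principal transcript lengths, added after the data were seen. The causes were not tested.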
